A study of Saccharomyces cerevisiae BY4741 with 24 samples.

Results

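Heat shock proteins and chaperones help other proteins to fold, keep them from clumping and carry them to the place where they work. Described here are 10 such genes of budding yeast among the 1042 features of the deposited comparison tables. The choice was by name, with earlier results of these data known. They are SSA1, SSA2, SSE1, HSC82, HSP104, YDJ1 and CPR6, whose proteins work in the cytosol, SSC1 and HSP60 of mitochondria, and KAR2 of the endoplasmic reticulum. All 10 have a row in 3 of the 5 tables, and 9 have a row in each of the other two, from which CPR6 is missing because its mean count of 7.36 lies under the lowest mean of those tables (11.1 and 7.62). The question was whether abscisic acid (ABA), a plant hormone used as a dimerizer in an anchor-away system, or its solvent methanol moves these RNAs.

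The samples were Saccharomyces cerevisiae cultures of BY4741, a haploid laboratory strain, in synthetic dextrose medium without tryptophan for 5 h. The untreated group had no addition, the methanol group had 1% methanol, and the ABA groups had 0.5 mM or 2 mM ABA together with the same 1% methanol, so methanol is shared by every group but the untreated one. Each group comprised 3 libraries of rRNA-depleted total RNA, 12 across the study, from 3 colonies grown on separate days, a pairing that the tables do not keep. Both the sample labels and the study's methods for RNA extraction name BY4741. A resource listing of the study names a NAB3-ABI strain for these data instead, and the values here cannot check the strain. RNA of whole cultures was read, so a change in every cell and a larger change in part of the cells cannot be told apart. The tables hold values for groups and not for single libraries, and depth per library is unknown. By the size of the standard errors of rare RNAs, 1 normalized count stood for an estimated 1.55 reads per library in the untreated group, 0.843 with methanol, 0.781 with 0.5 mM ABA and 1.14 with 2 mM ABA.

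Chaperones of the Hsp70 class hold and release unfolded stretches of protein in a cycle driven by ATP. J proteins such as Ydj1 bring the client and start ATP hydrolysis, and nucleotide exchange factors such as Sse1 open the cycle again. Hsp90 (Hsc82) takes over clients from Hsp70 with the help of co-chaperones such as the prolyl isomerase Cpr6, and Hsp104 pulls proteins out of aggregates. In yeast, heat and misfolded protein raise many of these RNAs through the transcription factor Hsf1, which binds repeats of a short unit called the heat shock element, while Msn2 and Msn4 act at the stress response element and Hac1 acts on genes of the endoplasmic reticulum.

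The 500 bases before each start codon were searched on both strands of build R64-1-1 for an unbroken heat shock element, GAANNTTCNNGAA or its reverse complement. Of the 10 genes, 6 held one, while 94 of 6659 nuclear coding genes did (1.41%). The matches are printed because this element is the known binding site of Hsf1. Each is given 5′ to 3′ on the strand of the gene, with the element in capitals, overlapping matches merged, and 6 flanking bases on each side.
SSA1 heat shock element at chrI:141772-141801: taaactTTCCAGAACATTCTAGAAagaaag
SSA1 second heat shock element at chrI:141674-141698: ttctttTTCCAGAACGTTCcatcgg
SSA2 heat shock element at chrXII:97700-97724: gtttttTTCTAGAACATTCcatcga
SSE1 heat shock element at chrXVI:352443-352467: agatgaTTCTAGAAGATTCcttttc
HSP104 heat shock element at chrXII:88315-88344: atatttTTCCAGAATTTTCTAGAAgggtta
HSP60 heat shock element at chrXII:665194-665218: ctcgtgGAATTTTCCAGAAaaccaa
KAR2 heat shock element at chrX:381116-381145: ttaataGAACCTTCTGGAAATTTCacccgg
HSP104 and KAR2 lie on the plus strand, and SSA1, SSA2, SSE1 and HSP60 on the minus strand. No unbroken element was found in these windows of HSC82, YDJ1, CPR6 and SSC1, which says only that these letters are not there.

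A further pair of motifs was searched in the same windows. The stress response element AGGGG was present before SSA1 (2 matches), HSP104 (3 matches) and SSC1 (1 match), 3 of 10 genes, and before 33.7% of all coding genes. The unfolded protein response element CAGCGTG was present before KAR2 alone among the 10 genes, and before 2.33% of all coding genes. These stretches show 1 stress response element of HSP104 and the KAR2 element, in capitals.
HSP104 stress response element at chrXII:88365-88381: tccataAGGGGccgcga
KAR2 unfolded protein response element at chrX:381161-381179: actggaCAGCGTGtcgaaa
In KAR2 this element begins 160 bases and its heat shock element 205 bases before the start codon. Apart from the letters themselves, no binding was measured.

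SSA1 (YAL005C, chrI:139503-141431) and SSA2 (YLL024C, chrXII:95566-97485) are coded on the minus strand and make nearly the same cytosolic Hsp70. Their coding sequences were identical at 96.4% of aligned positions and differed at 70, and the longest identical run was 383 bases. A read from such a run cannot tell the copies apart, and the authors' aligner placed reads with several matches at random. Of the windows of SSA1, 57.9% at 50 bases, 45.8% at 100 bases and 35.6% at 150 bases occurred unchanged in SSA2. The study's methods name paired reads of 150 bases, and their length after trimming is unknown. The start of the longest identical run and the window of 60 bases with the most differences are printed to show which reads could be assigned, with the differing bases in capitals.
SSA1 and SSA2 shared run at chrI:140970-141029 and chrXII:97024-97083: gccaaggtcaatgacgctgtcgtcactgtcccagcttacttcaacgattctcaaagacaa
SSA1 window at chrI:139712-139771: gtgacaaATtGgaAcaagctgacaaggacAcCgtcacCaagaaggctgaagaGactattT
SSA2 window at chrXII:95766-95825: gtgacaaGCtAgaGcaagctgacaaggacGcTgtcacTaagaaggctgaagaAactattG
This window differs at 9 of its 60 positions. HSC82 shared less with its copy HSP82, which was not analysed here, at 91.7% identity with a longest run of 113 bases. SSE1 with SSE2, SSC1 with ECM10, CPR6 with CPR7 and HSP104 with HSP78 shared no window of 50 bases.

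The 10 RNAs made up 0.642% of the summed mean counts of all features. Their mean normalized count over the 12 libraries (reads divided by the authors' size factors) ran from 7.36 for CPR6 to 88.7 for SSA2, with a median of 27.1 against 17.2 for the 898 nuclear protein-coding rows. Per kilobase of coding sequence the median was 14.5 for the 10 genes and 13.9 for all coding rows, so their counts stood out less once length was taken into account. SSA2 ranked 92 among the 898 coding rows by count, HSC82 140, SSA1 204, SSE1 225, SSC1 251, HSP60 410, KAR2 514, YDJ1 521, HSP104 568 and CPR6 726.

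In the untreated group the order per kilobase was SSA2 at 51.8, HSC82 at 33.4, SSA1 at 28.2, SSE1 at 21.1, SSC1 at 16.5, YDJ1 at 11.7, HSP60 at 10.6, HSP104 at 5.02, KAR2 at 4.63 and CPR6 at 2.10 normalized counts per kilobase. The most and least abundant were thus 24.7-fold apart, but no neighbour in this order differed from the next beyond the 95% interval of their ratio (0 of 9 pairs). With 1% methanol and with 0.5 mM ABA, 1 of 9 neighbouring pairs did, SSA2 over HSC82 (1.87-fold, interval 1.17 to 2.98, and 2.18-fold, interval 1.35 to 3.50). With 2 mM ABA SSA2 and HSC82 stood at 32.1 and 31.3 per kilobase, and the pair beyond the interval was KAR2 over HSP104 (2.63-fold, 1.12 to 6.16).

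**Figure D1:**
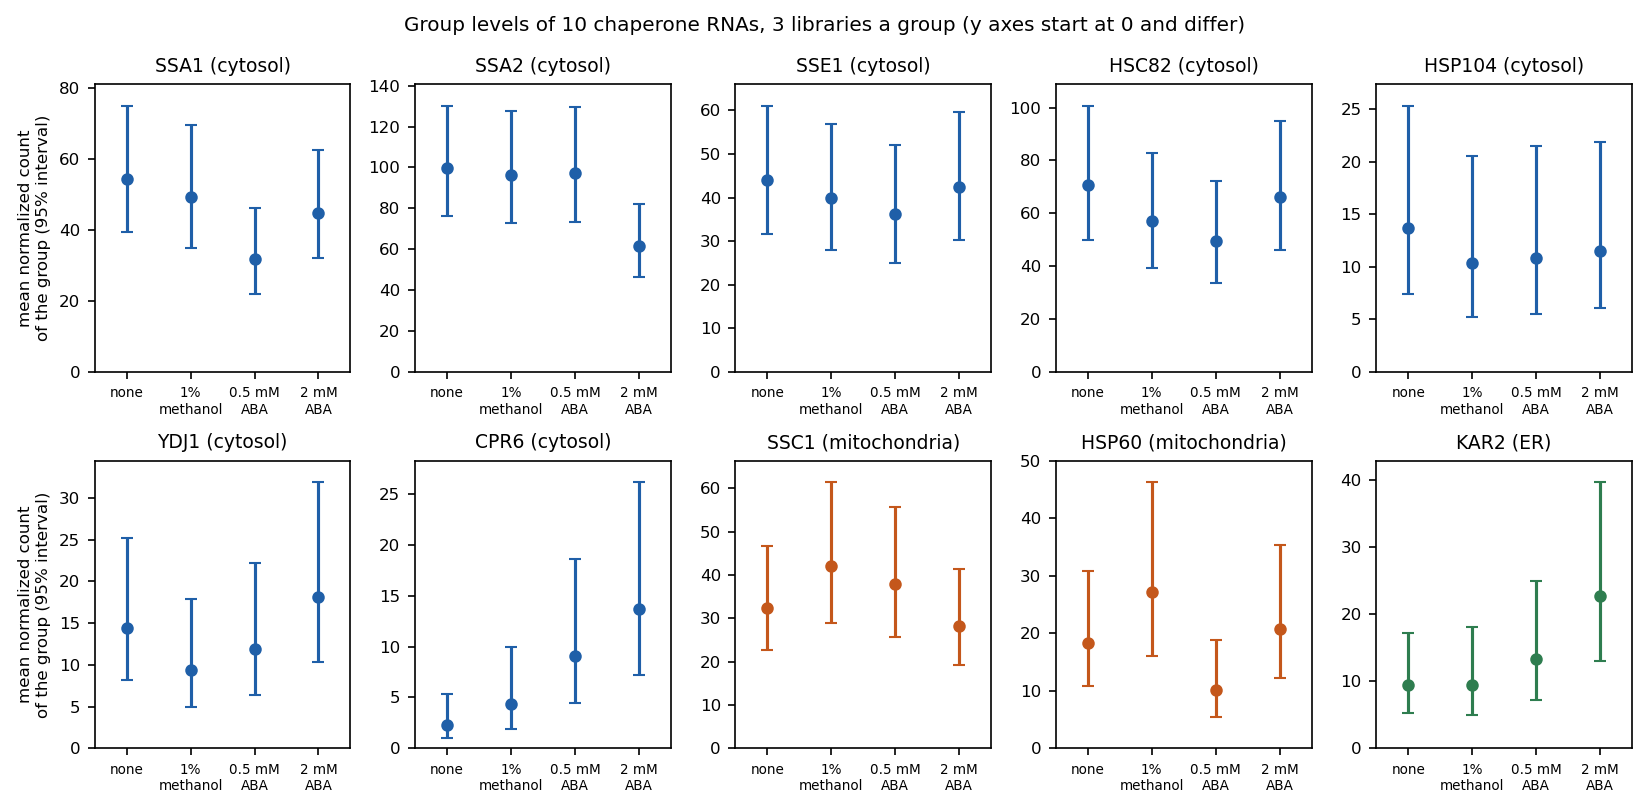
Mean normalized count of each of the 10 chaperone RNAs (y axis, starting at 0) in the untreated, 1% methanol, 0.5 mM ABA and 2 mM ABA groups (x axis). Points are group means of 3 libraries and bars are 95% intervals from the variance of the group. Most intervals of a gene overlap, and CPR6 shows the widest span, from 2.34 to 13.7.

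The call used here, that of the study's methods, asks for more than a 2-fold change (log2 over 1) and an adjusted p no higher than 0.05. None of the genes tested was called, 10 of them in 3 comparisons and 9 in the other 3, where CPR6 has no row and no adjusted p and is left out of the counts below. Over all features the rule called 0% between methanol and untreated, 0% between 0.5 mM ABA and methanol, 0.119% between 2 mM ABA and methanol, 0% between the ABA doses, 0.573% between 0.5 mM ABA and untreated and 0.476% between 2 mM ABA and untreated, so a count of 0 among 9 or 10 genes lies at the background. At an unadjusted p under 0.05 the counts were 0 of 10 between methanol and untreated (3.93% of all features), 1 of 10 (HSP60, lower) between 0.5 mM ABA and methanol (7.49%), 2 of 9 (SSA2 lower, KAR2 higher) between 2 mM ABA and methanol (10.5%), 1 of 10 (SSA2, lower) between the doses (5.09%), 1 of 9 (SSA1, lower) between 0.5 mM ABA and untreated (8.02%) and 2 of 9 (SSA2 lower, KAR2 higher) between 2 mM ABA and untreated (8.21%). With its modelled variance CPR6, left out of 3 of these counts, was higher at an unadjusted Wald p under 0.05 in each. The p was 0.0326 for 2 mM ABA against methanol. Against untreated it was 0.0156 for 0.5 mM ABA and 0.00101 for 2 mM ABA, so including CPR6 would raise these 3 counts. The 6 comparisons share groups, so they are not independent of each other.

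How large a change the data could have shown depended on the count. For a lone changed gene in the comparison of 2 mM ABA with methanol, the smallest absolute log2 fold change that could pass was 1.19 for SSA2 and 1.42 for SSA1, but 2.53 for YDJ1 and KAR2 and 2.77 for HSP104. The 95% interval lay wholly inside 2-fold either way for 3 of 10 genes between methanol and untreated (SSA1, SSA2 and SSE1), against 23.3% of all features. It did so for 4 of 10 between 0.5 mM ABA and methanol (SSA2, SSE1, HSC82 and SSC1, against 18.5%), for 3 of 9 between 2 mM ABA and methanol (SSA1, SSE1 and HSC82, against 22.9%) and for SSE1 alone between the doses (against 21.4%). Against untreated it did so for 3 of 9 with 0.5 mM ABA (SSA2, SSE1 and SSC1, against 29.9%) and for 4 of 9 with 2 mM ABA (SSA1, SSE1, HSC82 and SSC1, against 26.7%). For HSP104, YDJ1, CPR6, HSP60 and KAR2 the interval reached past 2-fold in every comparison. These shares were not compared at like counts, and the 10 genes had a higher median count than the coding rows (27.1 against 17.2).

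**Figure D2:**
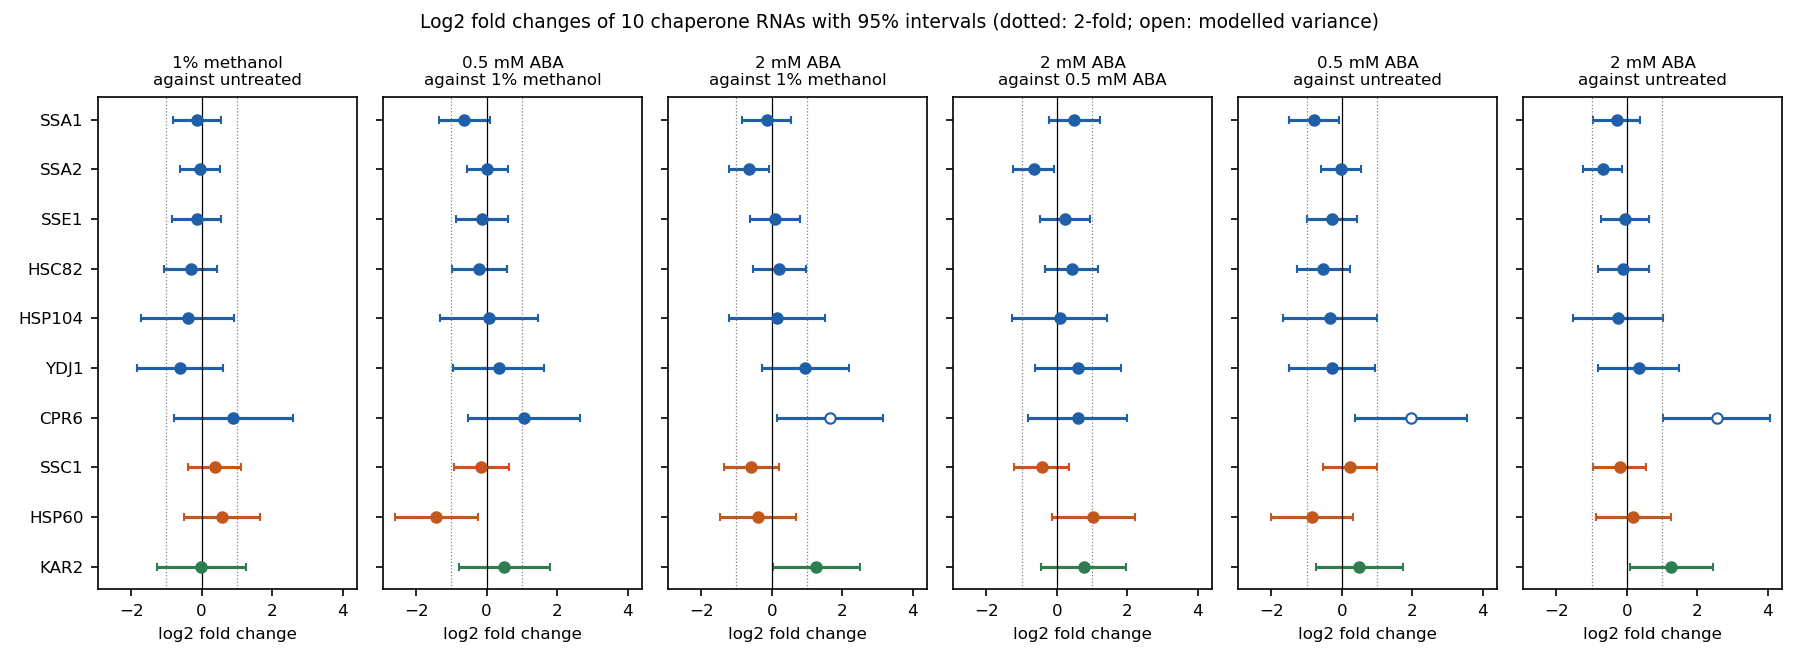
Log2 fold change (x axis) of the 10 chaperone RNAs (rows) in 6 comparisons (panels), with 95% intervals. Dotted lines mark a change of 2-fold and open points use a modelled variance. Intervals that leave out 0 are those of SSA2 in the 3 comparisons of the 2 mM ABA group, SSA1 with 0.5 mM ABA against untreated, HSP60 with 0.5 mM ABA against methanol, KAR2 with 2 mM ABA against methanol and untreated, and CPR6 at its open points.

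The median log2 fold change of the 10 genes was -0.09 between methanol and untreated (3 above 0, 7 below), beside -0.00012 over all 1042 features. It was -0.06 between 0.5 mM ABA and methanol (5 above, 5 below) beside 0.0079, and 0.09 over 9 genes between 2 mM ABA and methanol (5 above, 4 below) beside 0.0055. Between the doses it was 0.46 (8 above, 2 below) beside -0.02, the comparison with the most members on 1 side. Against untreated it was -0.28 with 0.5 mM ABA (2 above, 7 below) beside -0.0031 and -0.10 with 2 mM ABA (3 above, 6 below) beside 0.03. Of all features, between 47.9% and 52.4% were above 0 in each comparison. The 8 above between the doses and the 7 below with 0.5 mM ABA against untreated rest on the same 0.5 mM ABA libraries. No test was made of these medians.

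SSA2 had the highest mean count of the 10 RNAs over all groups, though at 2 mM ABA HSC82 was above it in counts (66.2 against 61.6). Its level was 99.5 normalized counts (95% interval 76.1 to 130.1) untreated, 96.4 (72.7 to 127.8) with methanol, 97.4 (73.4 to 129.4) at 0.5 mM ABA and 61.6 (46.3 to 82.1) at 2 mM ABA. The first 3 groups were close together and the 2 mM ABA group was the low one, with an interval that still overlapped the others. The log2 fold change of 2 mM ABA was -0.65 (SE 0.30) against methanol, -0.66 (SE 0.30) against 0.5 mM ABA and -0.69 (SE 0.29) against untreated, or 0.619-fold for the last. The adjusted p was 0.384 and 0.808 for the first and second by DESeq2, and 0.389 for the third by the Wald test on the summed tables, where the unadjusted p was 0.0167. These 3 comparisons use the same 2 mM ABA libraries.

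SSA1, its near-identical copy, had another low group. Its level was 54.5 normalized counts (39.6 to 75.0) untreated, 49.4 (35.0 to 69.7) with methanol, 31.8 (21.9 to 46.2) at 0.5 mM ABA and 44.7 (32.0 to 62.6) at 2 mM ABA. The 0.5 mM ABA group was lowest, at 0.584-fold of untreated (log2 fold change -0.78, SE 0.36, DESeq2 unadjusted p = 0.0317, adjusted p = 0.539) and 0.644-fold of methanol (log2 fold change -0.64, SE 0.37, adjusted p = 0.686). With 2 mM ABA the log2 fold change against methanol was -0.14 (SE 0.35).

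Because reads are split between the copies at random where they match both, the sum of the pair is given, which does not depend on that split. SSA1 and SSA2 together were 154.0 normalized counts untreated, 145.8 with methanol, 129.2 with 0.5 mM ABA and 106.4 with 2 mM ABA. The sum thus stood at 0.839 of its untreated level with 0.5 mM ABA, where SSA1 alone stood at 0.584, and at 0.691 with 2 mM ABA. The share of SSA1 in the pair was 35.4%, 33.9%, 24.6% and 42.1% in that order. Whether this share reflects the genes or the placement of reads was not tested. SSA1 also overlaps YAL004W on the opposite strand over 935 bases of its annotated exon, and whether the counting used strand is not stated, so reads of that pair may not be told apart.

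The ribosome-bound Hsp70 copies SSB1 and SSB2 gave a comparison pair, with 97.4% identity and a longest identical run of 563 bases. Their sum was 131.6 normalized counts untreated, 122.5 with methanol, 97.8 with 0.5 mM ABA and 103.0 with 2 mM ABA, or 0.744 and 0.782 of untreated in the ABA groups. In this pair SSB2 was the copy with the lower level in 0.5 mM ABA, at 38.8 against 64.4 untreated (log2 fold change -0.73, SE 0.35, DESeq2 adjusted p = 0.580), while SSB1 stood at 59.0 against 67.2.

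**Figure D3:**
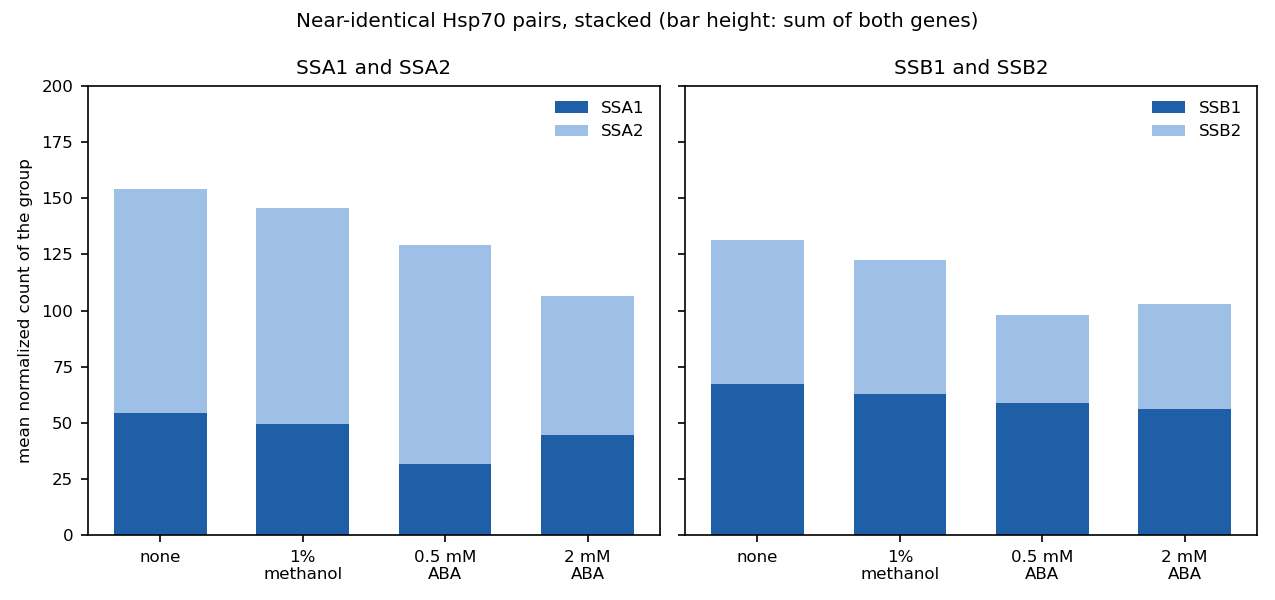
Stacked group means, in normalized counts (y axis), of the near-identical Hsp70 pairs SSA1 with SSA2 and SSB1 with SSB2 in the 4 groups (x axis). The height of a bar is the sum of the pair, which goes from 154.0 untreated to 106.4 with 2 mM ABA for SSA1 and SSA2 and from 131.6 to 103.0 for SSB1 and SSB2.

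SSE1 (YPL106C, chrXVI:350194-352275, minus strand), the Hsp110 that exchanges nucleotide on Ssa1 and Ssa2, varied least. Its level was 44.0 normalized counts untreated, 39.8 with methanol, 36.2 with 0.5 mM ABA and 42.5 with 2 mM ABA, and its highest group was 1.22-fold over its lowest. It was the only one of the 10 genes whose interval lay inside 2-fold in all 6 comparisons, coming nearest to that bound with 0.5 mM ABA against untreated (0.503-fold to 1.34-fold). By range over the 4 groups it ranked 993 of 1042 features, where rank 1 is the widest. The annotated transcripts CUT894 and CUT_CPL106CTs3 overlap SSE1 on the same strand, over 52 and 107 of its 2260 exon bases. Reads from there may not be told apart.

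YDJ1 (YNL064C, chrXIV:505868-507097, minus strand) codes for the main cytosolic J protein. It stood at 14.4 normalized counts untreated, 9.40 with methanol, 11.9 with 0.5 mM ABA and 18.2 with 2 mM ABA. The lowest and highest groups were methanol and 2 mM ABA, 1.93-fold apart (log2 fold change 0.95, SE 0.63, DESeq2 adjusted p = 0.623), and the interval from 0.819-fold to 4.55-fold held no change as well as a large one. Against untreated the fold change of 2 mM ABA was 1.26 (0.571 to 2.79). The annotated transcript CUT_CNL064CD2 overlaps YDJ1 on the same strand over 274 of its 1687 exon bases, so reads from there may not be told apart.

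HSC82 (YMR186W, chrXIII:632355-634472, plus strand) codes for the constitutive Hsp90. Its level was 70.8 normalized counts untreated, 56.9 with methanol, 49.4 with 0.5 mM ABA and 66.2 with 2 mM ABA. The group intervals all overlapped, from 33.7 at the low end to 100.7 at the high end. The largest difference was 0.5 mM ABA at 0.697-fold of untreated (0.415 to 1.17, DESeq2 adjusted p = 0.828), and 2 mM ABA stood at 0.935-fold of untreated (0.566 to 1.55).

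CPR6 (YLR216C, chrXII:572096-573211, minus strand), the cyclophilin that binds Hsp90, had the lowest mean count of the 10 over all groups and the widest range, while per kilobase the mean of HSP104 was lower (4.26 against 6.60). It stood at 2.34 normalized counts untreated (95% interval 1.02 to 5.37), 4.35 with methanol (1.90 to 9.97), 9.07 at 0.5 mM ABA (4.42 to 18.6) and 13.7 at 2 mM ABA (7.17 to 26.2). These intervals use a modelled variance. Those of untreated and 2 mM ABA, its lowest and highest groups, did not overlap. How many of all features have such a gap was not counted. The range of 5.85-fold ranked 9 of 1042 features, and the median range of the 550 features with a mean under 20 was 2.02-fold. These levels rest on few reads, an estimated 3.62 per library untreated and 15.7 with 2 mM ABA.

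In the tables that hold CPR6, the log2 fold change was 0.90 (SE 0.86) for methanol against untreated, 1.06 (SE 0.81) for 0.5 mM ABA against methanol and 0.59 (SE 0.71) for 2 mM against 0.5 mM ABA. Each is within 1.5 standard errors of 0, with DESeq2 adjusted p of 0.998, 0.732 and 0.968. Summed over these steps, 2 mM ABA against untreated gave 2.55 (SE 0.78, interval 1.03 to 4.07), with a variance modelled from the gene's dispersion and the depth of each group. In a version of this comparison with all 1042 rows, chosen after the data were seen, the Wald p was 0.00101 unadjusted and 0.118 adjusted, rank 8 of 1042, where 4 features were called (0.384%) and none of the 10 genes was. Against methanol, which the ABA groups share, the log2 fold change of 2 mM ABA was 1.65 (SE 0.77, interval 0.14 to 3.17 with the modelled variance). CPR6 overlaps YLR217W on the opposite strand over 860 of its 1260 annotated exon bases, and reads of the pair may not be told apart without strand. No row of YLR217W was analysed here.

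HSP104 (YLL026W, chrXII:88623-91349, plus strand), the disaggregase that is among the RNAs best known to rise on heat, was flat and imprecise. It stood at 13.7 normalized counts untreated, 10.4 with methanol, 10.9 with 0.5 mM ABA and 11.5 with 2 mM ABA. The fold change against methanol was 1.04 (0.397 to 2.74) at the lower ABA dose and 1.11 (0.433 to 2.82) at the higher. A rise of 3-fold thus lay outside both intervals, and a change of 2-fold did not. By range HSP104 ranked 894 of 1042 features.

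SSC1 (YJR045C, chrX:519638-521602, minus strand) codes for the Hsp70 that pulls proteins into the mitochondrial matrix and folds them there. It stood at 32.5 normalized counts untreated, 42.1 with methanol, 37.8 with 0.5 mM ABA and 28.2 with 2 mM ABA. Methanol was the highest and 2 mM ABA the lowest group, at 0.669-fold of methanol (0.392 to 1.14, DESeq2 adjusted p = 0.637).

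HSP60 (YLR259C, chrXII:663284-665002, minus strand) codes for the mitochondrial chaperonin, a barrel that encloses the proteins it folds. Its level was 18.3 normalized counts untreated (10.9 to 30.8), 27.2 with methanol (16.0 to 46.3), 10.1 at 0.5 mM ABA (5.44 to 18.9) and 20.8 at 2 mM ABA (12.3 to 35.3). Methanol was highest and 0.5 mM ABA lowest, while the higher dose stood close to untreated. The log2 fold change of 0.5 mM ABA against methanol was -1.42 (SE 0.60, DESeq2 unadjusted p = 0.0182, adjusted p = 0.611), the lowest of the 10 genes in that comparison. With 2 mM ABA it was -0.39 (SE 0.55) against methanol, and 2 mM against 0.5 mM ABA was 1.04 (SE 0.60, adjusted p = 0.916). SSC1 and HSP60 lay on the same side of 0 in 3 of the 6 comparisons, with methanol above untreated and both ABA doses below methanol for both genes.

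KAR2 (YJL034W, chrX:381327-383375, plus strand) codes for BiP, the Hsp70 of the endoplasmic reticulum and a standard reporter of the unfolded protein response. Its level was 9.49 normalized counts untreated (5.26 to 17.1), 9.46 with methanol (4.94 to 18.1), 13.4 at 0.5 mM ABA (7.20 to 24.9) and 22.7 at 2 mM ABA (13.0 to 39.7). Untreated and methanol were alike, 0.996-fold apart with an interval from 0.414 to 2.40, and 2 mM ABA was highest. The log2 fold change of 2 mM ABA was 1.26 (SE 0.63) against methanol, with a DESeq2 unadjusted p of 0.0450 and adjusted p of 0.456. Against untreated it was 1.26 (SE 0.60, adjusted p = 0.562 from the summed tables). At 0.5 mM ABA it was 0.50 (SE 0.66) against methanol.

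Other genes of the endoplasmic reticulum were looked at beside KAR2. Of a list of 16, 4 were in the tables, KAR2 itself and 3 others. HAC1, the transcription factor gene of the unfolded protein response, stood at 78.2 normalized counts untreated, 61.0 with methanol, 78.9 with 0.5 mM ABA and 65.2 with 2 mM ABA, with a log2 fold change of 0.10 (SE 0.32) for 2 mM ABA against methanol. These counts do not show splicing of HAC1 RNA, by which that factor is switched on. PDI1, protein disulfide isomerase and like KAR2 a gene of the endoplasmic reticulum lumen, had -0.36 (SE 0.55) in the same comparison. SEC63, which codes for the membrane J protein that brings Kar2 to the translocation channel, stood at 3.56 untreated, 6.58 with methanol, 18.9 with 0.5 mM ABA and 19.2 with 2 mM ABA. Both ABA groups of SEC63 were high, with log2 fold changes of 1.52 (SE 0.77, DESeq2 adjusted p = 0.630) and 1.54 (SE 0.76, adjusted p = 0.454) against methanol. Against untreated they were 2.41 (SE 0.77, adjusted p = 0.0983) and 2.43 (SE 0.76, adjusted p = 0.111 from the summed tables), still short of the call. The untreated and methanol levels of SEC63, 3.56 and 6.58 counts, rest on few reads.

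**Figure D4:**
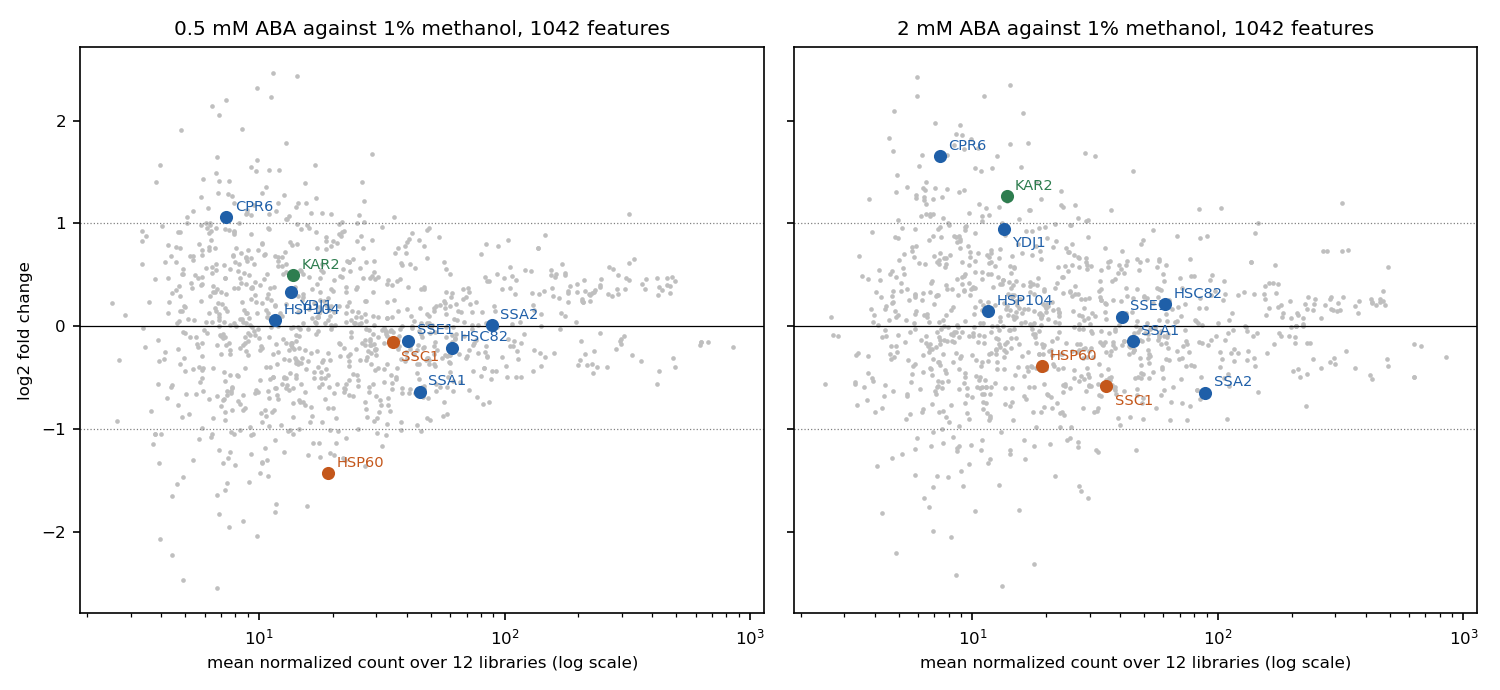
Log2 fold change (y axis) of 0.5 mM ABA and 2 mM ABA against methanol, from the group levels, by mean normalized count (x axis, log scale) for all 1042 features (grey) with the 10 chaperone genes in colour (blue cytosol, orange mitochondria, green endoplasmic reticulum). The spread of all features is wide at low counts, where CPR6 (1.65 with 2 mM ABA) and KAR2 (1.26) lie, and narrow at high counts, where SSA2 (-0.65) lies. Of these features, 202 have no row in the deposited table of 2 mM ABA against methanol.

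The range over groups was set beside that of all features. The highest group was over 2-fold above the lowest for 3 of the 10 genes, CPR6, HSP60 (2.68-fold) and KAR2 (2.40-fold), all with a mean under 20 counts. By range HSP60 ranked 144 and KAR2 199 of 1042 features, while YDJ1, at 1.93-fold, ranked 384. The number of all features over 2-fold thus lies between 199 and 384, so 3 of 10 does not stand out. Among the 5 genes with a mean of 20 or more, the median range was 1.49-fold, beside 1.50-fold for the 492 features of that abundance. Among the 5 with a lower mean it was 2.40-fold, beside 2.02-fold for 550 features. The dispersion, the squared coefficient of variation between libraries of a group beyond counting error, was lowest for SSA2 at 0.0497 (a coefficient of variation of 22.3%) and highest for CPR6 at 0.263 (51.3%). The median was 0.132 for the 10 genes and 0.181 for all coding rows. The 10 genes also had a higher median count (27.1 against 17.2), and dispersion was not compared at like counts. These dispersions are those of the authors' fit, solved from its standard errors.

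Wider lists of 121 chaperone and stress genes had 22 further genes in the tables, and none was called in any comparison. Genes such as HSP82, SSA3, SSA4, SIS1, STI1, HSP26, HSP42 and HSP12 were not analysed here, so the strongly inducible part of the heat shock response is mostly outside these data. At an unadjusted p under 0.05, 0 of 22 passed between methanol and untreated and 0 of 22 between the doses. Against methanol 1 was higher (SEC63) and 1 lower (ZUO1), of 22 tested at 0.5 mM ABA and 21 at 2 mM, where 7.49% and 10.5% of all features passed in either direction. Against untreated 1 was higher (SEC63) and 2 lower (SSB2 and ZUO1) of 15 tested with 0.5 mM ABA, and 2 were higher (EGD2 and SEC63) and 1 lower (ZUO1) of 21 with 2 mM ABA. Counted in either direction this was 3 of 15 and 3 of 21 against untreated, where 8.02% and 8.21% of all features passed.

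The chaperones at the ribosome meet the protein as it is made, and 6 of the 22 further genes belong to them. ZUO1, the J protein of the ribosome-associated complex, stood at 17.4 normalized counts untreated, 17.3 with methanol, 5.25 with 0.5 mM ABA and 7.11 with 2 mM ABA. Both ABA groups were the low ones, with log2 fold changes against methanol of -1.72 (SE 0.70, DESeq2 adjusted p = 0.611) and -1.29 (SE 0.64, adjusted p = 0.456). SSZ1, its Hsp70 partner, had -0.59 (SE 0.53) and 0.11 (SE 0.49). EGD2, the alpha subunit of the nascent polypeptide-associated complex, stood at 6.92 untreated and 20.0 with 2 mM ABA, a log2 fold change of 1.53 (SE 0.53, adjusted p = 0.238 from the summed tables), with 14.6 in methanol. The low levels of ZUO1 with ABA and of EGD2 untreated rest on few reads.

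Among the other cytosolic helpers, SBA1, the p23 co-chaperone of Hsp90, had a log2 fold change of 0.31 (SE 0.73) for 2 mM ABA against methanol. The chaperonin subunits CCT5, TCP1 and CCT3, which form 1 ring complex, had -0.66 (SE 0.67), 0.98 (SE 0.70) and 0.11 (SE 0.80), so subunits of the complex pointed in both directions within their errors. Among the prolyl isomerases CPR1 had -0.02 (SE 0.39), FPR1 had -0.40 (SE 0.53) and FPR4 had 0.35 (SE 0.72). Of stress genes outside folding, HSP150, a secreted cell wall protein gene, had -0.15 (SE 0.35), SOD1, copper-zinc superoxide dismutase, had 0.02 (SE 0.56) and TPS2, trehalose phosphate phosphatase, had -0.66 (SE 0.65).

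**Figure D5:**
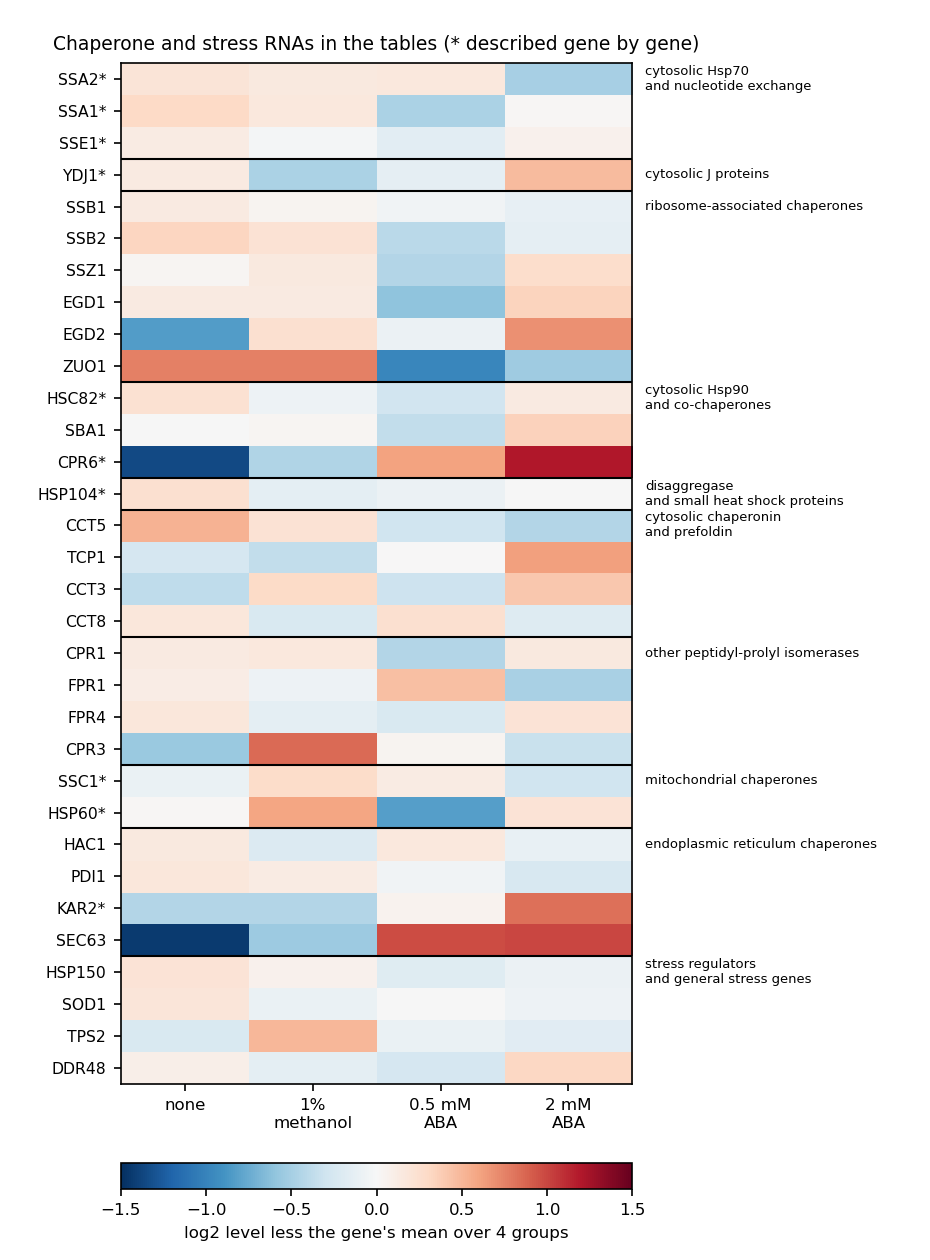
Log2 group level less the mean of the gene over the 4 groups (colour) for the 10 chaperone genes (asterisks) and 22 further chaperone and stress genes (rows, by list) in the 4 groups (columns). SEC63, CPR6 and KAR2 go from blue to red towards ABA, ZUO1 goes the other way, and most rows stay pale.

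The median profile of the 10 genes, as log2 level less the mean over groups, was 0.13 untreated, -0.05 with methanol, -0.11 with 0.5 mM ABA and 0.10 with 2 mM ABA. The features of the tables nearest to it by root mean square difference over these 4 values were RPS7B (0.031), FKS1 (0.033), RPL34B (0.041), CYS4 (0.048) and ARG4 (0.054 log2 units). Of the 10 genes SSE1 lay nearest at 0.034 and CPR6 farthest at 1.01. The profile is close to flat, and a nearly flat profile is near to many features.

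The genes with an unbroken heat shock element printed above took values in both directions. Between 2 mM ABA and methanol the log2 fold changes were -0.14 for SSA1, -0.65 for SSA2, 0.09 for SSE1, 0.15 for HSP104, -0.39 for HSP60 and 1.26 for KAR2. Without the element they were 0.22 for HSC82, 0.95 for YDJ1, -0.58 for SSC1 and 1.65 for CPR6. Between methanol and untreated, 5 of the 6 genes with an element were below 0, of which KAR2 (-0.0051) turned above 0 with the trend of GC content and length removed, and HSP60 was above at 0.57 (SE 0.55). Of the 4 without it, HSC82 (-0.31) and YDJ1 (-0.61) were below 0 and SSC1 (0.38) and CPR6 (0.90) above, and of all 1042 features 522 were below. No difference between genes with and without the element was tested.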

How the data were processed

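RNA-seq comparison tables of 12 libraries in 4 groups were analysed for 10 genes. The authors trimmed reads with Flexbar, collapsed duplicates and counted with pyCRAC, aligned to R64-1-1 with Novoalign and ran DESeq2, of a version not given in these sources. The mean normalized count is a signal the authors deposited, the reads of a feature after division by DESeq2 size factors, as a mean of the 12 libraries. Log2 fold changes with standard errors and the p-values of the Wald test, raw and adjusted, were likewise taken as deposited. They come from comparisons the authors made and are the only expression values used here.

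One table did not hold its title's comparison. Titled 2 mM ABA against untreated, it held 0.5 mM ABA less methanol to within 7.99e-15 log2 units in 698 shared rows, and was used so. Read as its title it missed the sum of the other tables by a median of 0.395. The 2 mM ABA comparison with untreated was summed from the tables over 840 rows (Wald test, normal distribution, Benjamini-Hochberg adjustment). Group levels and variances were solved from the fold changes and squared standard errors, and intervals are 95% (1.96 standard errors). They cover the spread between libraries as the authors' DESeq2 fit modelled it. For 202 rows that lack a table, CPR6 among them, the variance was modelled. The solving step was tested on data simulated from the same variance model. That checks the algebra and cannot show whether the deposited values follow the model.

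The genes and lists were chosen with earlier results of these data known. Named are the 10 genes, listed genes with an unadjusted p under 0.05 in any comparison, the 3 of each list with the highest mean count and the 5 features of nearest profile. Alternatives were other thresholds, adjustments and distributions, an abundance minimum, centring, removal of a trend with GC content and coding length, and summing SSA1 with SSA2. Sequences and positions are from the deposited annotation and the RefSeq genome of R64. Scripts ran in Python 3.11.15 with biopython 1.88, matplotlib 3.10.9, numpy 2.4.6, scipy 1.17.1 and pandas 2.3.3.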

Additional observations from a re-analysis of the deposited data

How the results depend on the processing

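No paired analysis was possible because the tables hold no values of single libraries, and for the same reason no library could be left out in turn. With an adjusted p of at most 0.1, no fold minimum, adjustment over all rows, a t distribution (8 degrees of freedom), a mean count of at least the median, centring or removal of the trend with GC content and coding length, the count of called genes among the 10 members (9 where CPR6 has no row) stayed at 0 in all 6 comparisons. SEC63, no member, had an adjusted p of 0.0983 by the authors' DESeq2 between 0.5 mM ABA and untreated, which passes at 0.1. With an unadjusted p under 0.05 and no fold minimum it was 1, 2, 1, 1 and 2 in the order of the report, and 0 between methanol and untreated. Removing the trend turned 13 log2 fold changes of genes named here, all uncalled. They were KAR2 (0.0667) and CPR1 (-0.0880) between methanol and untreated, HSP104 (-0.0362), PDI1 (0.0636) and HSP150 (0.0573) between 0.5 mM ABA and methanol, CPR1 (0.358) and HSP150 (0.204) between 2 mM ABA and methanol, SEC63 (-0.0532) and SOD1 (0.00655) between the doses, SSA2 (0.0655) and SOD1 (0.106) between 0.5 mM ABA and untreated, and HSP150 (0.0253) and SOD1 (0.0755) between 2 mM ABA and untreated. Centring turned CPR1 (-0.0199) and FPR4 (-0.00117) in the last comparison. Among the 5 members at or above the median count, the median log2 fold change between 2 mM ABA and methanol was -0.14, and over all 9 it was 0.09. Among the members, low counts limit HSP104, YDJ1, CPR6, HSP60 and KAR2 most. The causes of these shifts were not tested.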
